A study of Mus musculus with 16 samples.

Results

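A set of 8 genes of cholesterol synthesis and of its control by SREBP2 was followed through myogenesis in C2C12 cells: Hmgcs1, Idi1, Fdps, Fdft1, Sqle and Cyp51, which encode enzymes, and Srebf2 and Insig1, which encode regulators. They were taken by symbol, with no cut on measured values, but earlier results of these data were known when they were chosen. They are 8 of the 31053 genes in the table and 8 of the 10767 genes tested. C2C12 is a mouse myoblast line whose cells fuse into multinucleated myotubes. mRNA was sequenced from 16 samples, 4 for each genotype (WT or Fam134b KO) at each stage (myoblasts or myotubes). Fam134b encodes an ER-phagy receptor, a membrane protein that hands pieces of the endoplasmic reticulum to autophagosomes. The KO line was made with a lentiviral CRISPR-Cas9 vector that carries a pair of guide RNAs, and transduced cells were selected with antibiotics; the methods do not mention picking a clone. All groups were kept in DMEM with serum, and myotubes formed on their own at confluency, so the stages were not separated by a change to a differentiation medium. Genotype and stage were read from the sample titles, since a separate label gives the genotype as unknown, and no label gives the day of harvest.

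Cholesterol is built from acetyl-CoA by the mevalonate pathway, which leads to farnesyl diphosphate, and then by the sterol branch, which joins farnesyl units into squalene, closes the rings and trims lanosterol to cholesterol. SREBP2, the product of Srebf2, is made as a membrane protein of the endoplasmic reticulum; when sterol is low it travels with its escort SCAP to the Golgi, is cut there, and turns on the genes of the pathway. INSIG1 holds SCAP and SREBP2 back in the endoplasmic reticulum when sterol is plentiful, and is itself a target of SREBP2. Farnesyl diphosphate is also the source of the lipid anchors of prenylated proteins, of dolichol and of ubiquinone.

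Across the libraries, 1484750 to 3287461 reads were counted on genes, and Fam134b KO myotube replicates 2 and 4 were the shallowest, with 1790524 and 1484750 reads. Replicates of Fam134b KO myotubes correlated less well with each other (r from 0.879 to 0.95, on log2 values) than those of the remaining groups (0.927 to 0.984). A deposited value is the log2 of a normalized count plus 1, and levels below are normalized counts. Levels are compared between groups and not between genes, because they are not scaled to gene length. Fam134b itself lay between 146 and 287 in WT samples and between 23.4 and 56.9 in KO samples, with log2 fold changes of -2.86 (SE 0.26) in myoblasts and -2.46 (SE 0.26) in myotubes. Of 7 muscle differentiation markers, 7 rose from myoblasts to myotubes in each genotype, and their summed level reached 14110 to 17530 (WT) and 6566 to 7813 (Fam134b KO). In WT myoblasts the sum was 1143 to 1737. In Fam134b KO myoblasts the sum was 107.9 to 188.1, and 5 of these 7 markers had at most 3 reads in every sample. At an adjusted p under 0.05 in limma, 7 of the 7 were lower in Fam134b KO than in WT myoblasts, and 5 of the 7 between myotubes. Of all genes tested, 15.8% and 23.4% were called in either direction in these comparisons. The study states in general that its experiments used independent biological replicates, and neither the labels nor the sequencing methods say whether the 4 samples of a group came from separate cultures, so p-values measure the spread between these samples, which may be technical. In RNA from whole cultures, fewer cells that express a gene and less of its RNA per cell cannot be told apart.

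In the GRCm38 (mm10) annotation the genes lie at chr13:119690379-119708260 (Hmgcs1, plus strand), chr13:8885501-8892451 (Idi1, plus), chr3:89093588-89101959 (Fdps, minus), chr14:63145150-63179578 (Fdft1, minus), chr15:59315077-59331192 (Sqle, plus), chr5:4081145-4104746 (Cyp51, minus), chr15:82147181-82205379 (Srebf2, plus) and chr5:28071363-28078662 (Insig1, plus). Each is protein coding. For 2 of them the counting is uncertain because their transcript ends are shared with other genes. The last 500 bases of Fdps transcripts share 79.8% of their stretches of 31 bases with another gene, among them Gm43738 on the same strand, to which 0 reads were assigned in every sample. Those of Idi1 share 44.7%, with Gm13502 among the holders. The exons of Fdft1 overlap 774 bases of Ctsb on the opposite strand. Hmgcs1 overlaps 557 bases of Gm48342 in this way, Idi1 323 of Gm48574 and Cyp51 166 of Akap9. Gm48342 had 0 reads in every sample, and Akap9 had 21 to 123. Whether reads were counted by strand is not given in the sources used here, and the part of these overlaps in the values was not tested.

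RefSeq promoters (GRCm38.p6, from 250 bases before to 50 bases after the transcript start) were given for 5 of the 8 genes: Hmgcs1, Idi1, Cyp51, Srebf2 and Insig1. The sterol regulatory element was searched as TCACNCCA on both strands, with the E-box TCACGTGA that SREBPs can also bind, and with CCAAT and GGGCGG, the motifs of NF-Y and Sp1, which act beside SREBPs at such promoters. TCACNCCA was found in 2 of the 5 promoters, Hmgcs1 and Srebf2, and in 4.36% of the 32851 promoters of this length. CCAAT was found in 5 of 5, against 37.4% of all promoters, and GGGCGG in 5 of 5, against 35.7%. TCACGTGA was found in 0 of 5 and in 0.974% of all. Among the other mevalonate and sterol enzymes, TCACNCCA was in 1 of 13 genes with a promoter, Msmo1, CCAAT in 12 and GGGCGG in 12. These matches are letters in a window and do not show binding. Of the 5 promoters, 3 are printed, 5′ to 3′ on the strand of the gene, because their genes behaved differently: Hmgcs1 fell on differentiation, Srebf2 moved apart between the genotypes, and Cyp51 passed no test. Capitals mark TCACNCCA and CCAAT on either strand.
Hmgcs1 (chr13:119690101-119690400, plus strand): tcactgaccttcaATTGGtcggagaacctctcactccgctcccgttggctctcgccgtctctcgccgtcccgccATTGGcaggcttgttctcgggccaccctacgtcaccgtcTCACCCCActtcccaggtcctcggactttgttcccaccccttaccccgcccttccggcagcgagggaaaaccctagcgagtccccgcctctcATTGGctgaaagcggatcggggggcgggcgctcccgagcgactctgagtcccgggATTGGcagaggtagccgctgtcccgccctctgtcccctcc
Srebf2 (chr15:82147019-82147318, plus strand): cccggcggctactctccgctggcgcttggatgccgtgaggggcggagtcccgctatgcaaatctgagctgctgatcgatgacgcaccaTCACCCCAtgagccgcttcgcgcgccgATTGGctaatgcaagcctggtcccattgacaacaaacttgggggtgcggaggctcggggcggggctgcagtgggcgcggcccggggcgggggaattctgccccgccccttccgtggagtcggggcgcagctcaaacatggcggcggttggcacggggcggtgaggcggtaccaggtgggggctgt
Cyp51 (chr5:4104648-4104947, minus strand): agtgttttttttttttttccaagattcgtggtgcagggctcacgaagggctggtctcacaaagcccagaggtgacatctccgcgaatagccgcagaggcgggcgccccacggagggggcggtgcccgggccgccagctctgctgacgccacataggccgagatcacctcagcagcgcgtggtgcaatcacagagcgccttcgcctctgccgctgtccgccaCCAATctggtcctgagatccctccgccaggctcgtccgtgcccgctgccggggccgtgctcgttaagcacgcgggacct
The TCACCCCA match begins 137 bases before the start in Hmgcs1 and 162 bases before it in Srebf2.

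**Figure D1:**
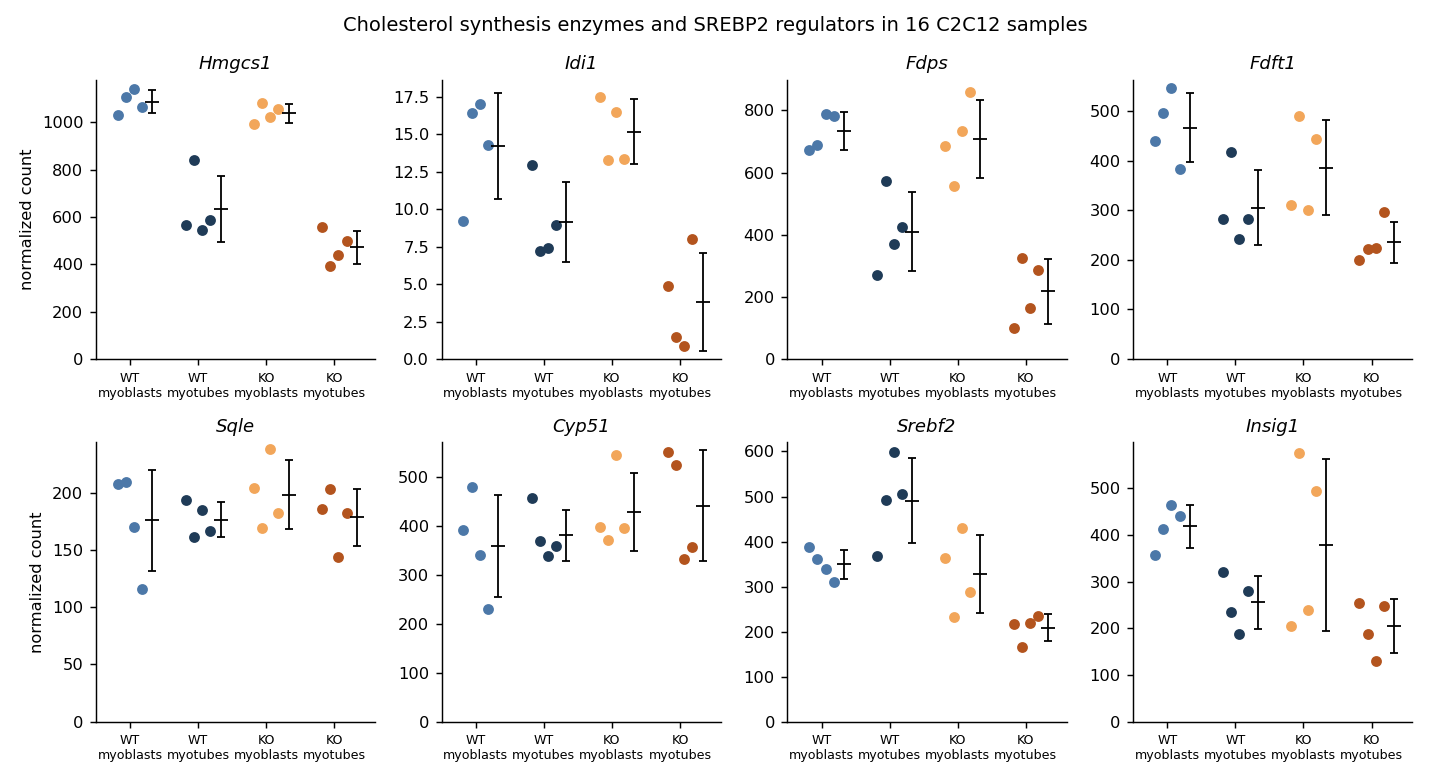
Normalized counts (vertical axis, linear, from 0) of the 8 genes in the 4 groups. Each point is 1 sample, in replicate order from left to right within a group, and the bar beside them is the mean ± SD (n = 4); Hmgcs1, Fdps and Fdft1 drop from myoblasts to myotubes in both genotypes, Sqle and Cyp51 stay within overlapping ranges, and Srebf2 is highest in WT myotubes and lowest in Fam134b KO myotubes.

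Differentiation of WT cells lowered the transcripts of Hmgcs1, Fdps and Fdft1 to between 55.9% and 65.5% of their myoblast means. Sqle and Cyp51 had mean levels of 100% and 106% of those in myoblasts. In all, 3 of the 8 genes were called, all lower, at a Benjamini-Hochberg adjusted p under 0.05 in limma, where 9.16% of the genes tested were called lower and 23% in either direction. The median log2 fold change of the 8 was -0.61, beside -0.01 over all genes tested.

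Hmgcs1 encodes the cytosolic synthase that makes HMG-CoA, an early intermediate of the mevalonate pathway. It stood at 1033, 1108, 1143 and 1066 in WT myoblasts and at 565, 840, 545 and 590 in WT myotubes (replicates 1 to 4). The groups did not overlap, and WT myotube replicate 2 was the highest of its group. The log2 fold change was -0.80 (SE 0.15, adjusted p = 8.18e-04, limma), and it stayed between -0.94 and -0.73 when single samples were dropped.

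Fdps, the synthase of farnesyl diphosphate at the branch point of the pathway, was measured at 672, 690, 789 and 783 in WT myoblasts and at 269, 573, 371 and 425 in WT myotubes. Every myotube sample lay below every myoblast sample, with replicate 2 again the highest in myotubes. The log2 fold change was -0.89 (SE 0.28, adjusted p = 0.0264, limma). The call was lost when any of 4 samples was left out (WT myoblast replicates 3 and 4, WT myotube replicates 1 and 3), with adjusted p from 0.0618 to 0.11.

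Fdft1, or squalene synthase, takes the first step that is committed to sterols. Its counts were 440, 497, 545 and 383 in WT myoblasts and 282, 417, 242 and 281 in WT myotubes, and the ranges overlapped through WT myotube replicate 2 alone. The log2 fold change was -0.63 (SE 0.20, adjusted p = 0.027, limma), and leaving out any of 5 samples (WT myoblast replicates 2 and 3, WT myotube replicates 1, 3 and 4) ended the call, with adjusted p from 0.0637 to 0.0929. Ctsb, the cathepsin B gene that overlaps Fdft1 on the other strand, rose by 1.37 on the log2 scale (SE 0.27, adjusted p = 1.06e-03) in WT cells; the part of this overlap in the Fdft1 value was not tested.

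Insig1 was at 357, 413, 464 and 439 in WT myoblasts and 320, 236, 189 and 279 in WT myotubes. These groups did not overlap either, as in 12% of all genes tested in the lower direction, but the log2 fold change of -0.73 (SE 0.28) had an adjusted p of 0.0643. A fit with a replicate block gave 0.0494, and with only the WT samples in the fit it was 0.00508, both past the threshold. Idi1, the isomerase that makes dimethylallyl diphosphate, was read only 8 to 17 times per WT sample, at 9.23, 16.4, 17.0 and 14.3 in myoblasts and 13.0, 7.20, 7.44 and 8.92 in myotubes, with a log2 fold change of -0.59 (SE 0.44, adjusted p = 0.361).

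Sqle encodes squalene epoxidase, a second control point of the pathway. It ranged from 116 to 209 in WT myoblasts and from 161 to 193 in WT myotubes, and the difference of 0.04 on the log2 scale had a 95% interval of -0.35 to 0.43. Cyp51, the lanosterol demethylase, ranged from 229 to 478 and from 338 to 457, with a difference of 0.12 and an interval of -0.32 to 0.57. Changes of the size seen for Hmgcs1 lie outside both intervals. Srebf2 stood at 388, 361, 339 and 311 in WT myoblasts and at 368, 491, 599 and 505 in WT myotubes. Its log2 fold change of 0.47 (SE 0.19, adjusted p = 0.0787) missed the threshold, which it passed with sample weights (adjusted p = 0.0033), with only the WT samples in the fit (0.0405) and without WT myotube replicate 1 (0.0404).

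In Fam134b KO cells, differentiation lowered 6 of the 8 genes: Idi1, Fdps, Hmgcs1, Insig1, Fdft1 and Srebf2. Mean levels in Fam134b KO myotubes were 25.1% to 63.7% of those in Fam134b KO myoblasts for these 6, and 90.1% and 103% for Sqle and Cyp51. In this comparison 16.1% of the genes tested were called lower and 33.4% in either direction, and the median log2 fold change of the 8 genes was -0.74, beside -0.02 over all genes tested.

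Hmgcs1 went from 993, 1081, 1022 and 1056 in Fam134b KO myoblasts to 557, 394, 442 and 498 in Fam134b KO myotubes, with no overlap, a pattern that 13.1% of all genes tested showed in this direction. This was a log2 fold change of -1.15 (SE 0.15, adjusted p = 7.53e-06, limma). Fdps went from 685, 558, 733 and 861 to 99.7, 325, 163 and 286, again with no overlap and with replicates 1 and 3 the lowest in myotubes. Its log2 fold change was -1.82 (SE 0.28, adjusted p = 3.61e-05). Neither call was lost under any alternative setting tried.

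Idi1 had normalized counts of 17.5, 13.3, 16.5 and 13.4 in Fam134b KO myoblasts, from 16 to 20 reads each, and of 4.84, 1.46, 0.90 and 7.99 in Fam134b KO myotubes, from 5, 1, 1 and 4 reads. Every myotube sample was below every myoblast sample. The fitted change was -2.02 (SE 0.44, adjusted p = 1.45e-03), a value that rests on 11 reads in all in the myotubes and was -1.26 with a pseudocount of 5 (adjusted p = 1.12e-03).

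Fdft1 was measured at 310, 490, 300 and 443 in Fam134b KO myoblasts and 199, 222, 223 and 296 in Fam134b KO myotubes. The highest myotube sample was just under the lowest myoblast sample, and the log2 fold change was -0.69 (SE 0.20, adjusted p = 0.0102). Ctsb rose here too, by 1.62 on the log2 scale (SE 0.27, adjusted p = 1.05e-04).

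Srebf2 fell in Fam134b KO cells, from 363, 232, 431 and 287 in myoblasts to 218, 166, 219 and 234 in myotubes. The groups overlapped only between myoblast replicate 2 and myotube replicate 4. On the log2 scale it changed by -0.62 (SE 0.19, adjusted p = 0.0158), and the call was lost without Fam134b KO myoblast replicate 1 or 3 or myotube replicate 2 (adjusted p from 0.0505 to 0.0714) and without both of the shallowest libraries, Fam134b KO myotube replicates 2 and 4 (0.0687).

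Insig1 split the Fam134b KO myoblasts, with 206 and 239 in replicates 1 and 3 and 575 and 495 in replicates 2 and 4. Fam134b KO myotubes had 255, 187, 131 and 248, so that myoblast replicates 1 and 3 lay inside the myotube range. The log2 fold change was -0.79 (SE 0.28, adjusted p = 0.0326), and this call rested on few samples. It was lost without Fam134b KO myoblast replicate 2 or 4 or myotube replicate 2 or 3 (adjusted p from 0.057 to 0.127), with sample weights (0.105) and with only the KO samples in the fit (0.091).

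Sqle ranged from 169 to 238 in Fam134b KO myoblasts and from 144 to 203 in Fam134b KO myotubes, and Cyp51 from 370 to 545 and from 331 to 551. The log2 fold changes were -0.15 for Sqle (95% interval -0.54 to 0.24) and 0.03 for Cyp51 (interval -0.42 to 0.47). The sign of the latter turned with total scaling, quantile normalization and sample weights.

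**Figure D2:**
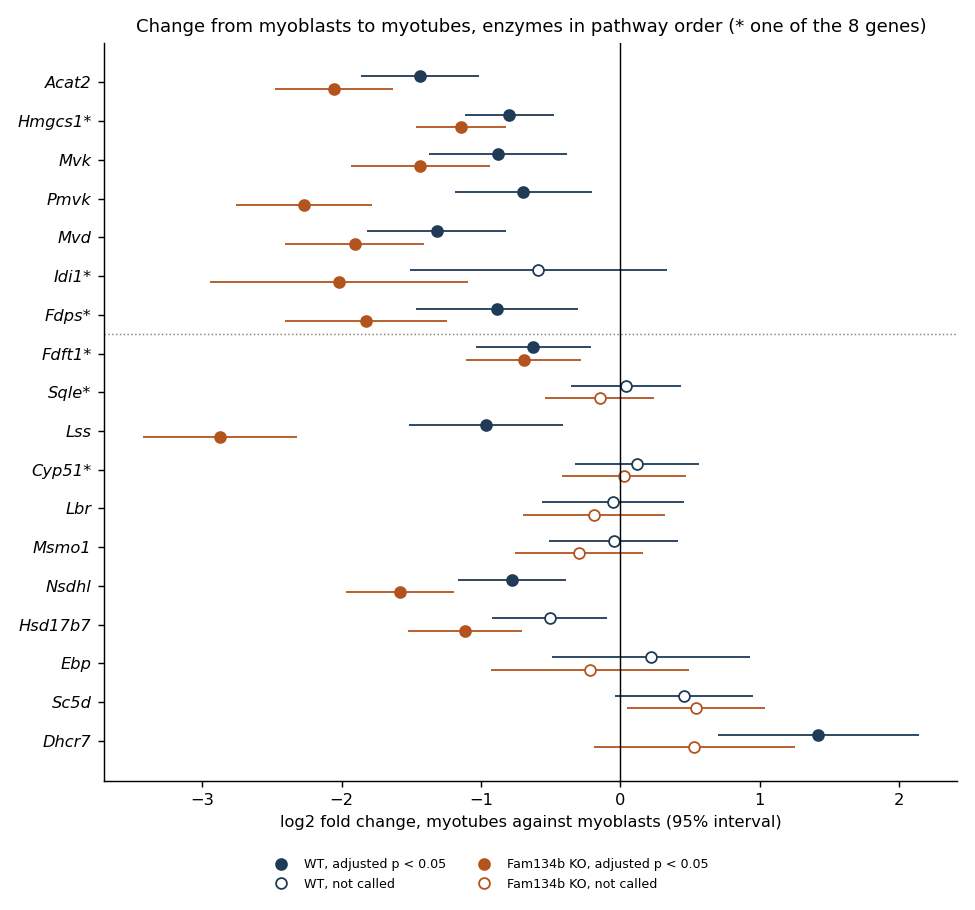
Log2 fold change from myoblasts to myotubes (horizontal axis, with 95% interval) in WT cells and Fam134b KO cells for 18 enzymes of cholesterol synthesis, listed from acetyl-CoA to cholesterol; filled points passed an adjusted p of 0.05 and the dotted line parts the steps up to farnesyl diphosphate from the sterol branch. The 7 enzymes above the dotted line each passed in at least 1 genotype, whereas Sqle, Cyp51, Lbr, Msmo1, Ebp and Sc5d in the sterol branch passed in neither, and Dhcr7 passed in WT cells only, upwards.

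The rest of the pathway was read from a list of 15 other mevalonate and sterol enzymes, of which 14 were in the table and all 14 were tested; the expression of Tm7sf2 was not analysed here. In WT cells 6 of these 14 fell and 1 rose on differentiation, and in Fam134b KO cells 7 fell and 0 rose. Of the 5 mevalonate enzymes on the list, 4 fell in both genotypes. Acat2, the thiolase of the first step, changed by -1.44 in WT and -2.05 in Fam134b KO cells on the log2 scale, and Mvd, the decarboxylase that yields isopentenyl diphosphate, by -1.32 and -1.90. The kinases Mvk and Pmvk changed by -0.88 and -0.70 in WT cells and by -1.43 and -2.27 in Fam134b KO cells.

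Of the 9 sterol branch enzymes tested, Lss, the cyclase that makes lanosterol, had log2 fold changes of -0.97 in WT cells (adjusted p = 0.0119) and -2.87 in Fam134b KO cells (adjusted p = 3.79e-08). Nsdhl, of the C4 demethylation complex, fell as well (-0.78 and -1.58), and its partner Hsd17b7 fell in Fam134b KO cells (-1.11). Dhcr7, the reductase of the last step of one arm of the branch, rose by 1.42 (SE 0.35, adjusted p = 5.53e-03) in WT cells. In Fam134b KO cells its value was 0.53 (SE 0.35, adjusted p = 0.253). With the 6 enzymes among the 8 genes, the calls therefore covered most steps up to farnesyl diphosphate and fewer of the steps after squalene, and the number of calls was not compared between the branches by a test.

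Before differentiation, no call parted the genotypes in these genes. None of the 8 was called between Fam134b KO and WT myoblasts in limma, 0 had an unadjusted p under 0.05, and 0 of 14 other enzymes were called (2 at an unadjusted p under 0.05), in a comparison where 15.8% of all genes tested were. These 2 were Mvk at 0.61 (adjusted p = 0.0955) and Nsdhl at 0.45 (0.11), both higher in Fam134b KO. Lss was at 0.49 (0.247), with 210 to 260 in WT and 306 to 380 in Fam134b KO myoblasts. Of the 14, 8 had positive and 6 negative log2 fold changes. Among the 8 genes the log2 fold changes ran from -0.29 for Fdft1 to 0.28 for Cyp51, with a median of -0.06 beside -0.01 over all genes. Hmgcs1 had the narrowest interval, from -0.39 to 0.25 around -0.07, and Idi1 the widest, from -0.81 to 1.03 around 0.11. Insig1, split in the Fam134b KO myoblasts as above, differed by -0.27 (95% interval -0.85 to 0.31). With sample weights 2 of the 8 were called lower, Fdft1 at -0.44 (adjusted p = 0.0188) and Insig1 at -0.57 (0.0427). That setting called 35% of all genes tested in this comparison, in either direction.

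In myotubes the genotypes differed. Fam134b KO myotubes held less Srebf2, Fdps and Idi1 RNA than WT myotubes, at 42.6%, 53.3% and 41.6% of the WT means, and 3 of the 8 genes were called, all lower. Over all genes tested, 13.7% were called lower and 23.4% in either direction. The median log2 fold change of the 8 was -0.39, beside -0.07 over all genes. The comparisons share groups of samples, so each is given by its own values and they are not independent of one another.

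For Srebf2 the 4 WT myotube samples, at 368 to 599, lay above the 4 Fam134b KO samples, at 166 to 234, with a log2 fold change of -1.22 (SE 0.19, adjusted p = 9.47e-05, limma). Of all genes tested, 10.8% had groups that did not overlap in this direction. The call was kept under all alternatives run, and the change stayed between -1.35 and -1.11 when single samples were dropped.

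Fdps changed by -0.998 (SE 0.28, adjusted p = 0.013); the ranges, 269 to 573 in WT and 99.7 to 325 in Fam134b KO myotubes, overlapped. Without Fam134b KO myotube replicate 1, the lowest sample, the value was -0.67 and the adjusted p 0.0501, and with only the myotube samples in the fit the adjusted p was 0.0546. Without the shallowest libraries, Fam134b KO myotube replicates 2 and 4, it was -1.62 (1.21e-04). Idi1 changed by -1.32 (SE 0.44, adjusted p = 0.0351), with 8 to 15 reads per WT and 1 to 5 per Fam134b KO myotube sample. This call was lost with a pseudocount of 5 (-0.74, adjusted p = 0.0523), with quantile normalization (-0.54, 0.429), with no filter (0.0651), with only the myotube samples in the fit (0.188), and without any of 5 samples (WT myotube replicate 1, 3 or 4, Fam134b KO myotube replicate 2 or 3), with adjusted p from 0.0556 to 0.114.

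Hmgcs1 fell just short, at -0.41 (SE 0.15, adjusted p = 0.0563). It passed with total scaling (0.0341), with quantile normalization (0.0319) and without WT or Fam134b KO myotube replicate 1 (0.047 and 0.0328). Fdft1 was at -0.36 (adjusted p = 0.198) and Insig1 at -0.34 (0.41). Cyp51, at 0.18 (95% interval -0.26 to 0.63), and Sqle, at 0.01 (interval -0.38 to 0.40), again passed no test.

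Of the 14 other enzymes, 5 were lower in Fam134b KO than in WT myotubes and 0 higher. Among them, Pmvk differed by -1.64, Lss by -1.42 and Acat2 by -0.68.

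**Figure D3:**
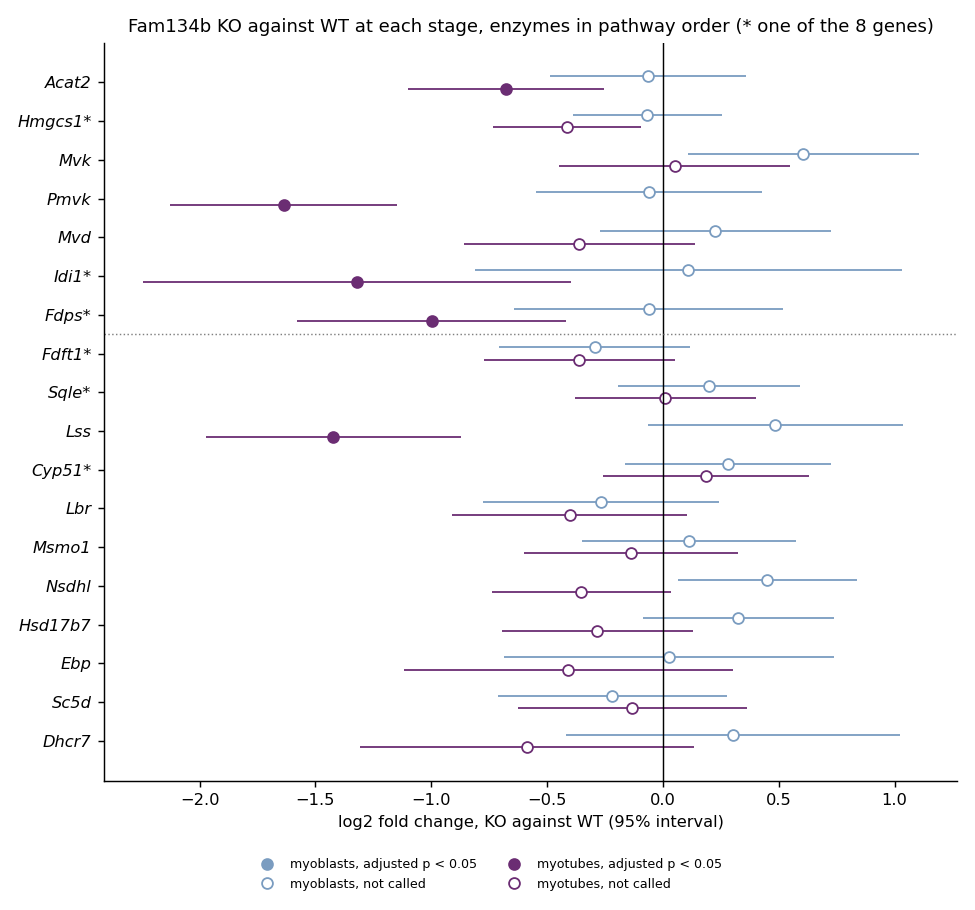
Log2 fold change of Fam134b KO against WT (horizontal axis, with 95% interval) in myoblasts and in myotubes for the same 18 enzymes in pathway order; filled points passed an adjusted p of 0.05 and the dotted line is drawn after Fdps. No point for myoblasts is filled, and the 5 filled points for myotubes (Acat2, Pmvk, Idi1, Fdps and Lss) all lie below 0.

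Whether differentiation acted differently in the 2 genotypes was tested by the interaction of genotype and stage, the change in Fam134b KO cells minus the change in WT cells. Srebf2 was the 1 gene of the 8 called, with -1.09 (SE 0.27, adjusted p = 0.0254, limma), where 3.45% of all genes tested were called in either direction and 1.48% in this one. Its change was 0.47 in WT and -0.62 in Fam134b KO cells. The call was lost when any of 6 samples was left out (WT myoblast replicate 3 or 4, WT myotube replicate 3 or 4, Fam134b KO myoblast replicate 1 or 3), with adjusted p from 0.0549 to 0.0665, and without Fam134b KO myotube replicates 2 and 4 together (-1.02, 0.0551).

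The larger falls of Idi1 and Fdps in Fam134b KO cells did not pass this test, at -1.43 (SE 0.63, adjusted p = 0.237) and -0.94 (SE 0.39, adjusted p = 0.217). For Fdps the interaction passed with sample weights (-1.24, adjusted p = 0.00573) and without Fam134b KO myotube replicates 2 and 4 (-1.56, 0.00719), and for Idi1 with sample weights (-1.68, 0.0442). Hmgcs1 had -0.35 (adjusted p = 0.429), Sqle -0.19, Cyp51 -0.10, Fdft1 -0.07 and Insig1 -0.07. Of the 14 other enzymes, 2 were called, Lss at -1.91 (SE 0.37, adjusted p = 4.47e-03) and Pmvk at -1.58 (SE 0.33, adjusted p = 8.73e-03).

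Of 10 genes for the proteins that move and cut SREBPs and for the turnover of sterol enzymes, 5 rose and 0 fell with differentiation in WT cells, where 13.8% of all genes tested were called higher. In Fam134b KO cells 5 of the 10 rose and 0 fell, against 17.3% of all genes called higher. In WT cells those that rose included Rnf139 (1.20), a ubiquitin ligase of the endoplasmic reticulum, Scap (0.76), the escort of SREBPs, and Insig2 (0.71), the second INSIG. In Fam134b KO cells they included Rnf139 (1.40), Mbtps1 (1.35), the site-1 protease that makes the first cut in SREBPs, Rnf145 (1.12) and Scap (1.08). Between the genotypes, Fam134b KO myoblasts had more Insig2 (0.70) and less Rnf145 (-0.76), and Fam134b KO myotubes more Mbtps1 (0.62). Srebf1, the sister gene of Srebf2 whose products act mainly on fatty acid synthesis, was lower in Fam134b KO than in WT myotubes (-1.45, SE 0.44, adjusted p = 0.0198), with 3 to 22 reads in each Fam134b KO myotube sample. None of the 10 was called for the interaction in limma, although 4 had an unadjusted p under 0.05.

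Genes of sterol uptake were mixed. Of 9 genes for lipoprotein uptake and sterol export from lysosomes, 1 rose and 1 fell in WT cells, and 3 rose and 2 fell in Fam134b KO cells. Stard4, a sterol carrier and SREBP2 target, fell in WT cells (-1.22, adjusted p = 2.54e-04) and in Fam134b KO cells (-2.10, adjusted p = 1.20e-07). Vldlr, a lipoprotein receptor, rose by 2.40 in WT cells, from 4.61 to 18.0 in myoblasts to 29.7 to 108 in myotubes. It had at most 1 read in Fam134b KO myoblasts and at most 11 in Fam134b KO myotubes, so that its fitted change between genotypes depends on the pseudocount. Lipa, the lysosomal acid lipase, rose by 1.07 in Fam134b KO cells and was higher in Fam134b KO than in WT myotubes, by 0.91.

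The LXR and efflux list had 4 of 8 genes tested, and 2 rose in each genotype on differentiation. They were Apoe (1.79) and Nr1h2 (0.62), the gene of the sterol sensor LXRβ, in WT cells and Soat1 (0.99), which esterifies cholesterol, and Nr1h2 (0.89) in Fam134b KO cells. Soat1 was lower in Fam134b KO than in WT myoblasts (-0.88), and 0 of the 4 were called between myotubes. The branches that draw on farnesyl diphosphate for prenyl groups, dolichol and ubiquinone had 0 of 12 genes called in limma on differentiation in WT cells (1 at an unadjusted p under 0.05) and 2 in Fam134b KO cells (6 at an unadjusted p under 0.05). The 2 called were Rabggtb (0.57) and Pggt1b (-2.22), subunits of prenyl transferases. Pggt1b was also the 1 gene of the 12 called between myotubes, at -2.00, with 0 to 14 reads in each Fam134b KO myotube sample.

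Markers of proliferation were measured beside the 8 genes. Of 8 such markers, 6 fell with differentiation in WT cells, 8 in Fam134b KO cells, 0 differed between Fam134b KO and WT myoblasts in limma (1 at an unadjusted p under 0.05), and 6 were lower in Fam134b KO than in WT myotubes. Their summed level ran from 5962 to 6505 for WT myoblasts and from 4774 to 7216 for the Fam134b KO ones. It ran from 2843 to 4706 for WT myotubes and from 1147 to 2005 for Fam134b KO myotubes, and 0 of the 8 were without reads in any group. Adipocyte markers, measured as the other mesenchymal fate, summed to 75.7 to 97.1, 129.5 to 176.1, 108.8 to 201.2 and 214.5 to 451.2 in that order of groups. Adipoq and Plin1, which define fat cells, were at 0 reads in all groups, and Fabp4 had at most 1 read per sample. The sum rose with Lpl, whose means were 9.56, 81.1, 85.2 and 258 in the same order. Means of Cebpa were 70.5, 60.7, 49.1 and 44.2, and those of Pparg 4.28, 18.2, 1.82 and 4.33. Of the 3 adipocyte markers tested, 1 rose in WT cells and 1 rose and 1 fell in Fam134b KO cells on differentiation, 2 were higher in Fam134b KO than in WT myoblasts, and 1 was higher between myotubes. The part of either list in the sterol gene results was not tested.

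**Figure D4:**
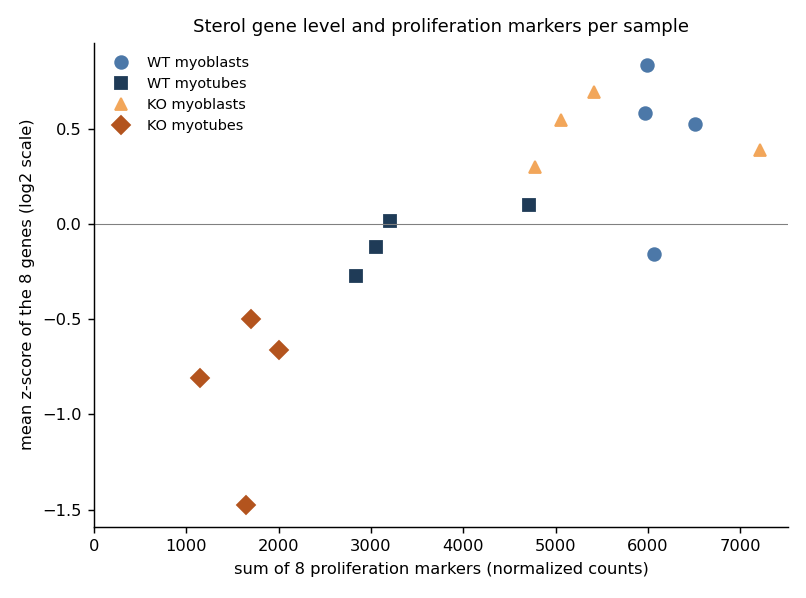
Mean z-score of the 8 sterol genes over the 16 samples (vertical axis, log2 scale) against the summed normalized count of 8 proliferation markers (horizontal axis) for each sample, with groups by colour and shape. Fam134b KO myotubes sit lowest on both axes (z-score -1.48 to -0.50), WT myotubes between (-0.27 to 0.10), and myoblasts of both genotypes up to 0.84, with WT myoblast replicate 4 (-0.16) inside the WT myotube range.

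When all other genes tested were ranked by the r of their log2 values with this mean z-score over the 16 samples, 8 of the 10 most alike were Mcm5 (0.919), Rfc4 (0.914), Atad2 (0.9), Cenpk (0.898), Trip13 (0.897), Melk (0.895), Spag5 (0.894) and Cdc25c (0.892). Mcm5 and Rfc4 act in DNA replication, Cenpk and Spag5 at centromeres and the spindle, and Cdc25c at entry into mitosis. The 16 samples fall into 4 groups, so that r mostly ranks how the group means differ. In these 8 genes the r of the deviations from group means was 0.298 to 0.514. Of the pathway, Pmvk (rank 33, r 0.855), Stard4 (rank 43, 0.848) and Acat2 (rank 64, 0.842) came closest.

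Among the 8 genes the likeness was uneven. Against the mean z-score of the other 7, r over the 16 samples was 0.82 for Idi1, 0.81 for Hmgcs1, 0.72 for Fdps, 0.69 for Fdft1, 0.57 for Insig1, 0.31 for Srebf2, 0.22 for Sqle and -0.07 for Cyp51. Sqle and Cyp51 followed each other instead, with an r of 0.836 over all samples.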

How the data were processed

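Total RNA was sequenced by a digital mRNA-seq service as single-end reads. The authors trimmed reads with bbduk, removed rRNA and phiX reads, aligned them with STAR 2.6.0a to mm10 (tool version and build per the submitters' processing notes) and counted them on genes with HTSeq; the normalization tool is not given in the sources used here. The deposited values are log2(normalized count + 1). For 100% of the values above 0, 2 to the power of the value, minus 1, is a whole multiple (within 0.01) of 1 step per sample, so the reads behind each value are known.

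The filter kept genes that reached a normalized count of 10 in 4 or more of the 16 samples, and limma 3.58.1 (R 4.3.3) was run on them (lmFit, contrasts.fit, eBayes with trend; 4 group means, all 16 samples, no covariates), with Benjamini-Hochberg adjustment over 10767 genes and a threshold of 0.05. Each gene has 1 spread for all groups in this model. The fit was tested on simulated data. Groups are those of the sample titles. The 8 genes, the lists and the tests were chosen with earlier results of these data known. From each list, up to 4 called genes with the largest change were named per comparison, with the 10 genes most alike the 8 over the samples. Ctsb, Dhcr7 in Fam134b KO cells, Sc5d, Msmo1, Lbr, Cebpa and Fabp4 were named after their values were seen. So were Mvk, Nsdhl and Lss between myoblasts. Some genes that this rule selects enter the counts and are not reported here by name. Loci and shared sequence came from GENCODE M21, promoters from RefSeq. Figures were drawn with matplotlib.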

Additional observations from a re-analysis of the deposited data

Results flagged for a closer look

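One result stood out because the same contrast went in different directions in the 2 genotypes. The change of Srebf2 with differentiation was 0.47 on the log2 scale in WT cells (adjusted p = 0.0787) and -0.62 in Fam134b KO cells (adjusted p = 0.0158), and the test of the difference itself gave -1.09 (95% interval -1.65 to -0.53, limma, adjusted p = 0.0254). No single sample of a group lay apart from the other 3 of its group by Dixon's test in any of the 32 combinations of the 8 genes and 4 groups; chance alone would give about 1 in 20.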

How the results depend on the processing

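Results were recomputed with a pseudocount of 0.5 or 5, without a filter or with a minimum of 50 (where Idi1 was not tested), with total scaling, quantile normalization, a replicate block or sample weights, on the samples compared alone, at an adjusted p under 0.01, with each sample left out and, chosen after seeing the data, Fam134b KO myotube replicates 2 and 4 left out. Of the 8 genes, sample weights called 5 for WT differentiation, 2 between myoblasts and 3 for the interaction. Of all genes tested, sample weights called 43.5%, 35% and 11.3% in these comparisons, beside 23%, 15.8% and 3.45% in the main fit. Only the samples compared gave 5 for WT differentiation and 1 between myotubes, with 31% and 14.5% of all genes tested called. An adjusted p under 0.01 left 1, 3, 1 and 0 for WT and Fam134b KO differentiation, myotubes and interaction. The shares of all genes tested were then 11.8%, 20.6%, 12.5% and 1.31%. Of the 14 other enzymes, 4 and 3 were left for WT differentiation and myotubes at 0.01. Total scaling, sample weights and only the samples compared called 1, 3 and 2 of the 14 between myoblasts, and 16.1%, 35% and 24.7% of all genes tested. With each sample left out, counts of the 8 were 1 to 4, 4 to 6, 0 to 0, 2 to 3 and 0 to 1 in the order of the comparisons, and 0 to 1 of the 14 between myoblasts. The lowest count for WT differentiation came without WT myoblast or myotube replicate 3, and 0 for the interaction without any of the 6 samples named for Srebf2.

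Signs turned only where no call was made. For Cyp51 in Fam134b KO differentiation the value was -0.0292 with total scaling, -0.0104 with quantile normalization and -0.0691 with sample weights. Between myoblasts Fdps was 0.00886 with quantile normalization and Srebf2 0.00498 with sample weights. Between myotubes Sqle was -0.0215 with quantile normalization, -0.0487 with sample weights and -0.10 without Fam134b KO myotube replicates 2 and 4. With sample weights the interaction was 0.12 for Fdft1 and 0.0909 for Insig1. With each sample left out, WT differentiation ranged from -0.15 to 0.14 for Sqle and -0.078 to 0.28 for Cyp51, and Fam134b KO differentiation from -0.0944 to 0.15 for Cyp51. Between myoblasts the ranges were -0.0704 to 0.20 for Idi1, -0.16 to 0.0484 for Fdps and -0.27 to 0.0287 for Srebf2, and between myotubes -0.054 to 0.11 for Sqle. For the interaction they were -0.18 to 0.091 for Fdft1, -0.25 to 0.10 for Cyp51 and -0.31 to 0.18 for Insig1. The cause was not tested.

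Same-numbered samples of different groups had deviations with a mean r of 0.033, beside -0.0108 for different numbers. Above 0.1 were 10 of 24 same-numbered pairs and 17 of 72 pairs with different numbers. These values do not settle whether the numbers pair samples, and the main fit did not pair them. The replicate block moved 1 call, Insig1 in WT differentiation (-0.73, adjusted p = 0.0494), and no other call of the 8. Of the genes called for WT differentiation, 60.1% were higher, and 49.7% with quantile normalization. Depth limits Idi1 most, with 1 to 5 reads per Fam134b KO myotube sample.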

Other observations

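The agreement of Sqle and Cyp51 lay between replicates and not between groups. Over the deviations of the 16 samples from their group means, r was 0.864 for this pair, the highest of the 28 pairs among the 8 genes, whose median was 0.0591. WT myoblast replicate 4 was the lowest of its group in both genes, at 116 for Sqle and 229 for Cyp51, and Fam134b KO myoblast replicate 3 was the highest, at 238 and 545. In the pathway lists, the deviations of Sc5d had an r of 0.759 with those of the mean z-score of the 8 genes, Msmo1 0.759 and Lbr 0.700, whereas Pmvk had 0.15, Acat2 0.172 and Lss -0.217. These genes were singled out after their values were seen. The opposite extreme among the pairs was Srebf2 with Insig1, whose deviations had an r of -0.667: Fam134b KO myoblast replicates 2 and 4, the highest in Insig1, were the lowest in Srebf2, at 232 and 287. The samples of a group share their group mean, and deviations also carry any difference between whole libraries, whose part was not tested.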
